A study of Homo sapiens with 4 samples.

Results

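The kinetochore is the protein assembly that joins each chromosome to the spindle, and the 42 genes described here encode proteins of the centromere, the kinetochore and the spindle assembly checkpoint. They were chosen by name, with earlier results of these data known, as a list of rows of the deposited count table. Thus 42 of its 40205 gene symbols are covered, and all 42 had enough counts to be tested. The cells were A549, an established human lung adenocarcinoma line, transfected with small interfering RNA (siRNA) through Lipofectamine iMAX and harvested at 24 h. For 2 libraries a negative control siRNA was used (NC-1 and NC-2, here control 1 and control 2). The remaining 2, Knockdown-670 and Knockdown-732, received siRNA against the long non-coding RNA SBF2-AS1; what the numbers in these titles stand for is not stated. No further treatment or allele is named for either group, no library of untransfected cells enters the comparison, and all 4 libraries come from this 1 line. The labels do not say that the replicates were separate cultures, so the p-values rest on a spread between these samples that could be technical.

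Each centromere is marked by nucleosomes that hold the histone variant CENP-A. On them sits the constitutive centromere-associated network, the inner kinetochore, which carries the outer KMN network of the KNL1, MIS12 and NDC80 complexes, and NDC80 binds microtubules. Kinetochores without microtubules recruit the checkpoint proteins, which hold back the anaphase-promoting complex until every chromosome is attached. Many of these genes are transcribed mainly in G2 and mitosis, through promoters that carry a cell cycle homology region (CHR), the element bound by the DREAM and MuvB complexes, and CCAAT boxes, which NF-Y binds.

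The libraries held 12149767 to 12938143 counts. The targeted SBF2-AS1 was read 57 and 79 times with control siRNA, against 15 and 18 times in the knockdown (log2 -1.94, SE 0.30, edgeR adjusted p = 3.19e-05). Of 6 epithelial markers 3 fell and 1 rose, and their summed level was 6925 to 6962 CPM (counts scaled to a library of equal size) in the controls and 5335 to 5750 CPM in the knockdown. The immune genes CD3E and HLA-DRA had 0 counts in every library. Summed over 6 immune markers, control libraries held 9.98 to 12.1 CPM and knockdown libraries 8.83 to 9.77 CPM. Nearly all of that sum was CD14, at 12.06 CPM in control 1, 9.90 in control 2, 8.66 in Knockdown-670 and 9.61 in Knockdown-732. The sum of 6 fibroblast markers was 10.1 CPM in each control and 11.03 to 13.7 CPM in the knockdown, and that of 5 endothelial markers 3.02 to 3.17 and 1.36 to 2.36 CPM. The share of mitochondrially encoded RNA was 9.32 to 9.36% in the knockdown and 11.001 to 11.05% in the controls. All 12 genes of a short interferon list rose, with a summed level of 220 to 228 CPM in the controls and 1932 to 1936 CPM in the knockdown. Of these, IFIT1, an antiviral RNA-binding protein, had a log2 fold change of 4.91, IFIT2 one of 3.94 and IFIT3 one of 3.75. The part of these values in the results on the kinetochore genes was not tested.

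The comparison asks how RNA of these genes differed between siRNA to SBF2-AS1 and control siRNA. Of the 42 genes, 39 fell, 0 rose and 3 (CENPB, CENPT and MAD1L1) missed the threshold of 0.05 for the adjusted p from edgeR. No member was higher at an unadjusted p under 0.05 in edgeR, and 0 were called higher by DESeq2 or limma-voom. Over all 16120 genes tested, 22.8% fell and 23.5% rose by the same rule. The median log2 fold change of the 42 was -1.53, against -0.002 over all genes tested. Their summed level was 1554 and 1511 CPM in controls 1 and 2 and 719 and 730 CPM in Knockdown-670 and Knockdown-732. The sum thus stood at 47.3% of its control level. It is weighted toward abundant genes such as CENPF, HJURP, CENPB and BUB3, of which CENPB was not called, and is not the level of a typical member. In bulk RNA, fewer cells in the phases that transcribe such genes and less RNA per cell cannot be told apart.

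The change had a wide range within the group. In 6 genes, ZWINT, SPC25, MLF1IP, CENPK, SKA1 and OIP5, the log2 fold change was -2 or lower, in 25 it lay between -2 and -1, and in 11 it was above -1. With a correction for the GC content and length of transcripts, 0 of the 42 were at -2 or lower, and ZWINT, at -1.975, was the lowest. The spread of all tested genes gives the scale: 12 of the 42 were among the lowest 1% (log2 -1.695 or less) and 31 among the lowest 5% (log2 -1.01 or less). Tested against a change of 1.5-fold with edgeR's glmTreat, 31 of the 42 had fallen further than that, while 4.64% of all genes tested had. Both knockdown libraries were below both controls in 39 of the 42, as in 36.2% of all genes tested.

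**Figure D1:**
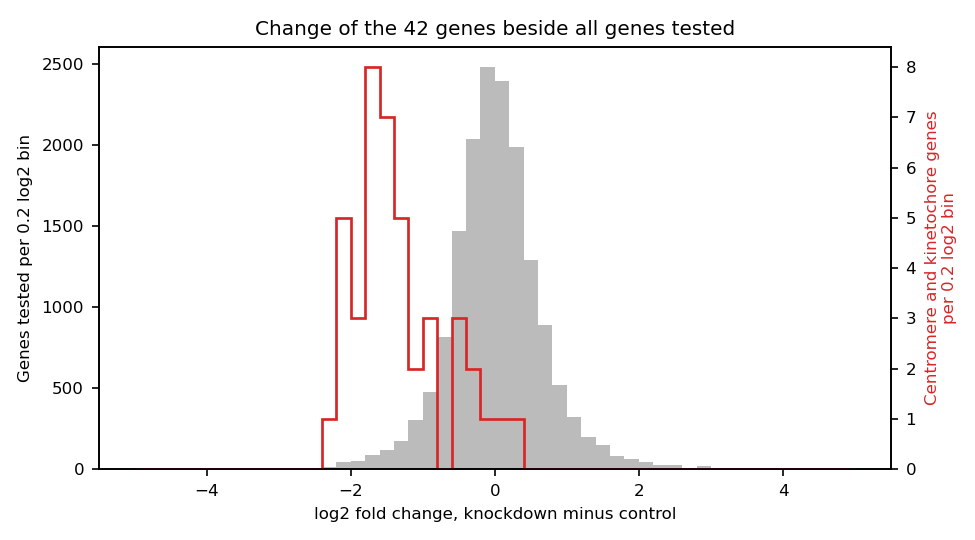
Number of genes (vertical axes) by log2 fold change, knockdown minus control (horizontal axis), for all 16120 genes tested (grey, left axis) and for the 42 centromere and kinetochore genes (red outline, right axis), both in bins of 0.2. Most of the 42 lie between -2.21 and -0.87, left of the main mass of genes, and a small set of 8 lies above -0.61 in this fit. The gap between them did not hold in other fits.

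The promoters hold sequence features that played no part in choosing the genes. RefSeq promoter sequences, from 250 bases before to 50 after the annotated start (GRCh38.p14), were matched for 35 of the 42 genes; MIS18A, CENPH, CENPL, CENPM, CASC5, KNTC1 and BUB3 had no entry. The windows below run from 100 bases before to 50 after the start, 5′ to 3′ on the strand of the gene, for 6 genes that fell and for 2 that did not pass. All 6 hold a CHR in the form searched, TTTGAA, which is not typical of the fallen genes. Of 21 matched genes without TTTGAA 18 also fell, MLF1IP and CENPK among them. Other spellings of a CHR were not searched, and OIP5, CENPW and SGOL1, counted without one, hold TTCGAA. Capitals mark TTTGAA or its reverse complement TTCAAA (the CHR), CCAAT or ATTGG (the CCAAT box) and the E2F-type motif TTTNNCGC or its reverse complement.
CENPA, chr2:26785956-26786105, + strand: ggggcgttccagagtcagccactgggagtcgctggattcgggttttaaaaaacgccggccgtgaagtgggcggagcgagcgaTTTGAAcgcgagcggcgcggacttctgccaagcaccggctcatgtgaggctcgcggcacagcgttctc
ZWINT, chr10:56361210-56361359, - strand: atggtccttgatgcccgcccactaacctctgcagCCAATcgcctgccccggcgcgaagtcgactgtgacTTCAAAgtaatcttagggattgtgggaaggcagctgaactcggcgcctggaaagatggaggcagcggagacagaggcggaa
SPC25, chr2:168890381-168890530, - strand: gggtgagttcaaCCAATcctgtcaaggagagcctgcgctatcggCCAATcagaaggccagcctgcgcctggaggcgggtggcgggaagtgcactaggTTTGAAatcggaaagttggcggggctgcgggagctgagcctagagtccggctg
NUF2, chr1:163321854-163322003, + strand: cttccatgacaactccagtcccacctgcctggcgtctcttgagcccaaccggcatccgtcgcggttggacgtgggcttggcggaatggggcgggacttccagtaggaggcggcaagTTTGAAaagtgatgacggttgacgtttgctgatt
CENPN, chr16:81007114-81007263, + strand: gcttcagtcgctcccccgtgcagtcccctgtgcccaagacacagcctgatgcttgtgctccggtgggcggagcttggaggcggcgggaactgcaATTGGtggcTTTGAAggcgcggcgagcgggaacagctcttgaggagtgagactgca
CENPF, chr1:214603095-214603244, + strand: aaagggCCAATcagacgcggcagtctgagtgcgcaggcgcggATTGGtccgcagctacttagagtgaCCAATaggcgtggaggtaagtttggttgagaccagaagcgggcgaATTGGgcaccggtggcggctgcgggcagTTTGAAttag
CENPB, chr20:3786691-3786840, - strand: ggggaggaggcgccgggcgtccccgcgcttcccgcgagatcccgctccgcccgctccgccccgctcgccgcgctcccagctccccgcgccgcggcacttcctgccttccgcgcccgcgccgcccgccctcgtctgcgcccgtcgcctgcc
MAD1L1, chr7:2232896-2233045, - strand: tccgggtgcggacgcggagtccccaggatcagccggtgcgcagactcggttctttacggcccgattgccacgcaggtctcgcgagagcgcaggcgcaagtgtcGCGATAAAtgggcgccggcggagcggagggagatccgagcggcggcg

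In the whole window of 300 bases, on either strand, TTTGAA was found in 14 of 35 member promoters (40.0%) and in 15.2% of the 35116 promoters in the table. Within 100 bases before to 50 after the start it was in 12 of 35 (34.3%), against 6.84% of all promoters. CCAAT was present in 21 of 35 (60.0%), against 34.6%, and TTTNNCGC in 9 of 35 (25.7%), against 6.89%. Among the 10176 tested genes with a promoter in the table, the shares were 9.47% for TTTGAA, 36.3% for CCAAT and 10.5% for TTTNNCGC. In the nearer window TTTNNCGC was in 4 of 35 (11.4%), against 3.41% of all promoters and 5.19% of tested genes. The CHR of CENPA began 18 bases before the start, that of ZWINT 31 bases before and those of CENPN and NUF2 at bases 4 and 17 after it. Both a CHR and a CCAAT box were present in 9 promoters, CENPA, HJURP, CENPC, CENPN, SPC25, ZWINT, ZW10, MAD2L1 and CENPF (25.7%, against 5.90% of all).

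The 14 genes with TTTGAA all fell, with log2 fold changes from -2.21 to -0.42 and a median of -1.64. Of the 21 without it 18 fell, and the 21 had a median of -1.43. These letters were thus no divide between genes that moved and genes that did not. The 3 genes that did not pass had neither TTTGAA nor a CCAAT box in this window, and MAD1L1 had an E2F-type match. CENPE, DSN1, CENPI and CENPP held none of the 3 motifs in the matched windows and fell. For CENPI that window (chrX:101100808-101101107) lies downstream of the gene's GENCODE start at 101098218. It may thus miss the promoter, yet CENPI counts among the 21 without TTTGAA. Windows of some other genes, such as CENPA, NUF2 and MAD1L1, also lie inside the GENCODE span. The lack of TTTGAA and CCAAT in MAD1L1 thus holds for that window only. With an E2F-type match the median was -0.97 over 9 genes, and without one -1.56 over 26. Among all 10176 tested genes with a promoter in the table, the same comparison gave 35.8% fallen of 964 genes with TTTGAA and 24.3% of those without. For the E2F-type motif, as written with open letters NN, the tested genes went the other way from the members. Their median was -0.115 with a match, where 34.8% fell, and 0.017 without one, where 24.3% fell. Both open letters were C or G in CENPA, OIP5, MLF1IP and MIS12, at -1.99, -2.01, -2.18 and -0.33. In the other members with a match they were not, and a narrower motif was not searched. A match is a run of letters and not a measured binding site.

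**Figure D2:**
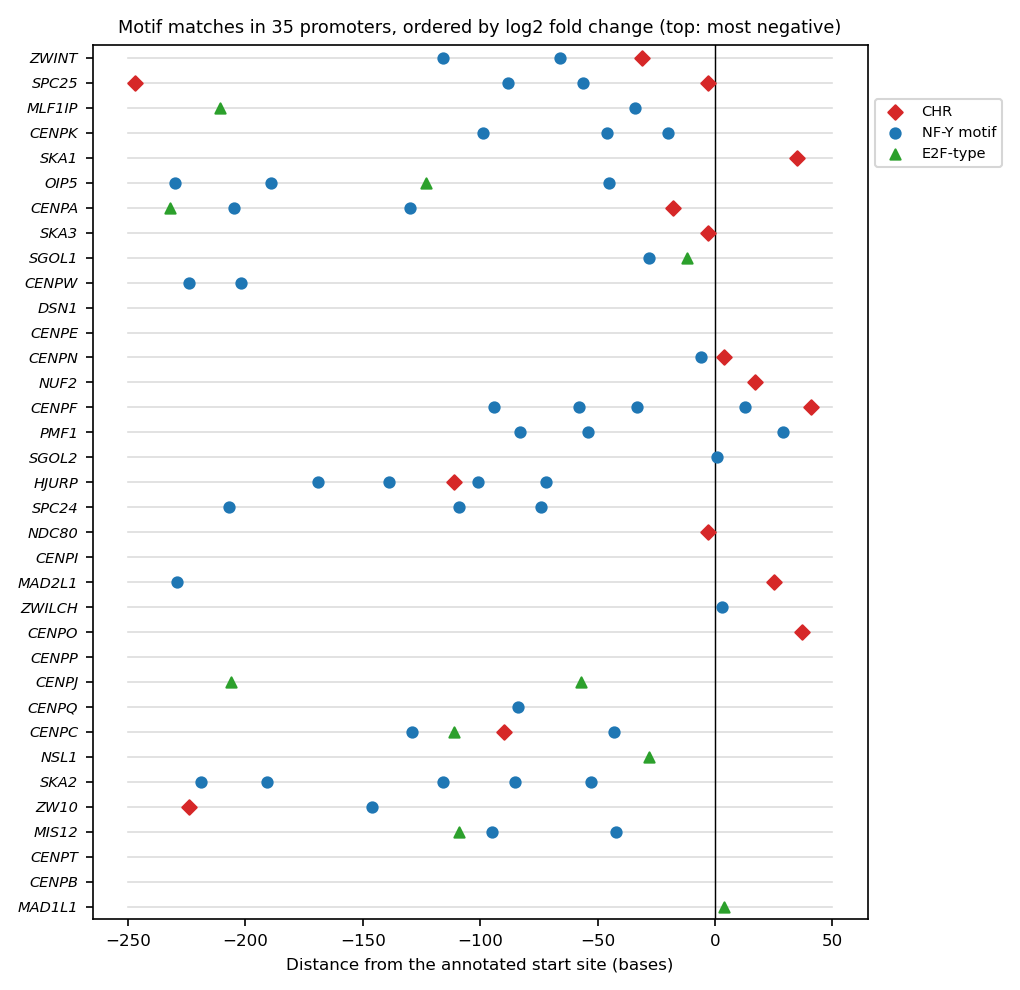
Position of motif matches (horizontal axis, bases from the annotated start; negative is upstream) in the 35 promoters, 1 row per gene, ordered from the most negative log2 fold change at the top. Red diamonds are CHR matches, blue circles CCAAT boxes (labelled NF-Y motif) and green triangles E2F-type matches; most red diamonds lie near the start, and the last 3 rows (CENPT, CENPB, MAD1L1) hold no red or blue mark.

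Centromere identity rests on CENPA, the centromeric histone H3 variant, and on the proteins that load it. CENPA (chr2:26764289-26801067 in GENCODE on GRCh38) was at 26.7 and 25.4 CPM in the controls and at 6.62 and 6.46 CPM in the knockdown libraries. The groups were far apart and the 2 libraries of each group close together: 26.03 ± 0.905 against 6.54 ± 0.115 CPM (SD, n = 2 each). CENPA thus fell by 1.99 on the log2 scale (SE 0.14, edgeR adjusted p = 2.74e-09). HJURP, the chaperone that deposits CENP-A, went from 167 and 159 to 55.6 and 56.5 CPM, with a log2 fold change of -1.54 (SE 0.07). OIP5 and MIS18A are subunits of the MIS18 complex, which prepares the centromere for loading. OIP5 was at 10.2 and 11.6 CPM in the controls and 3.40 and 2.05 CPM in the knockdown (log2 -2.01, SE 0.23), and MIS18A at 9.51 and 8.62 against 3.23 and 4.65 CPM (log2 -1.19, SE 0.21).

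CENPB differed from the loading factors. It encodes the protein that binds the CENP-B box of alpha-satellite DNA, and its level was 143 and 144 CPM in the controls and 151 and 145 CPM in the knockdown libraries. On the log2 scale CENPB differed by 0.04 (SE 0.07, edgeR adjusted p = 0.651); scaled by library size only it was -0.02, and corrected for GC content and transcript length it was -0.28 and passed as a fall. CENPB has the highest transcript GC content of the 42, 66.2%. OIP5 shares 470 exon bases with OIP5-AS1 on the opposite strand, which stood at 143 ± 1.86 CPM in the controls and 150 ± 0.221 CPM in the knockdown. Without knowledge of strand use in counting, reads of such a pair cannot be told apart. Exons of 9 of the 42 genes overlap a gene on the opposite strand. MLF1IP shares 346 bases with PRIMPOL and SGOL1 shares 679 with SGO1-AS1.

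Of the 13 inner kinetochore genes 12 fell, and CENPT did not pass. MLF1IP, the older symbol of CENPU, went from 18.01 and 19.4 CPM to 3.14 and 5.04 CPM, or -2.18 on the log2 scale (SE 0.19, edgeR adjusted p = 2.94e-08). CENPK was at 21.3 and 17.8 CPM in the controls and at 3.65 and 5.12 CPM in the knockdown (log2 -2.14, SE 0.18). CENPK has a transcript GC content of 32.9%, the lowest of the 42, and its log2 fold change was -1.48 with the GC and length correction. In both genes the 2 groups were well separated and Knockdown-670 was the lower of the knockdown libraries.

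CENPK belongs to the subcomplex of CENPH, CENPI, CENPK and CENPM. CENPH fell from 20.2 and 21.99 to 5.94 and 7.56 CPM (log2 -1.64, SE 0.16), CENPI from 12.2 and 11.4 to 4.33 and 4.41 CPM (log2 -1.43, SE 0.18) and CENPM from 18.1 and 17.8 to 8.41 and 7.09 CPM (log2 -1.21, SE 0.15). All 4 genes of that subcomplex thus fell by more than 2-fold. CENPN, which recognises the CENP-A nucleosome, went from 31.6 and 33.9 to 10.7 and 9.61 CPM (log2 -1.69, SE 0.13). Its partner CENPL was at 8.27 and 6.73 CPM in the controls and 3.82 and 2.36 CPM in the knockdown (log2 -1.28, SE 0.24). CENPN overlaps CMC2 on the opposite strand by 457 exon bases, and CMC2 was itself lower in the knockdown, at 26.5 and 20.6 CPM against 60.5 and 62.8 CPM.

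MLF1IP forms a subcomplex with CENPO, CENPP and CENPQ, and the fall was uneven across it. CENPO was at 63.2 and 67.0 CPM in the controls and at 26.8 and 25.9 CPM in the knockdown (log2 -1.30, SE 0.09). CENPP went from 12.2 and 8.69 to 4.33 and 5.83 CPM (log2 -1.03, SE 0.21), and CENPQ from 14.1 and 12.1 to 5.35 and 7.96 CPM (log2 -0.97, SE 0.19). Neither CENPP nor CENPQ had fallen beyond 1.5-fold by glmTreat, and CENPQ, with a GC content of 33.9%, stood at -0.34 and did not pass with the GC and length correction. CENPO shares 1010 exon bases with ADCY3 and CENPP shares 2954 with IPPK, each on the opposite strand.

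CENPC and CENPT are the scaffolds that bridge the inner and outer kinetochore. CENPC had the lowest level per kilobase of exon of the 42 in the controls, 0.788 CPM, and was at 5.88 and 5.06 CPM in the controls and 3.31 and 2.68 CPM in the knockdown, a fall of 0.87 on the log2 scale (SE 0.24, edgeR adjusted p = 0.00684) that did not pass in DESeq2. CENPT was at 36.5 and 28.4 CPM in the controls and at 30.2 and 27.0 CPM in the knockdown, the only 1 of the 42 genes whose groups overlapped. On the log2 scale it differed by -0.18 (SE 0.12, edgeR adjusted p = 0.251); it was 0.005 without control 1, and it passed as a fall of 0.36 without control 2 and of 0.34 with the GC and length correction. CENPW, the histone-fold partner of CENPT, fell instead from 8.27 and 7.71 to 2.89 and 1.73 CPM (log2 -1.80, SE 0.25), so the knockdown libraries differed from the controls in 1 partner far more than in the other.

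**Figure D3:**
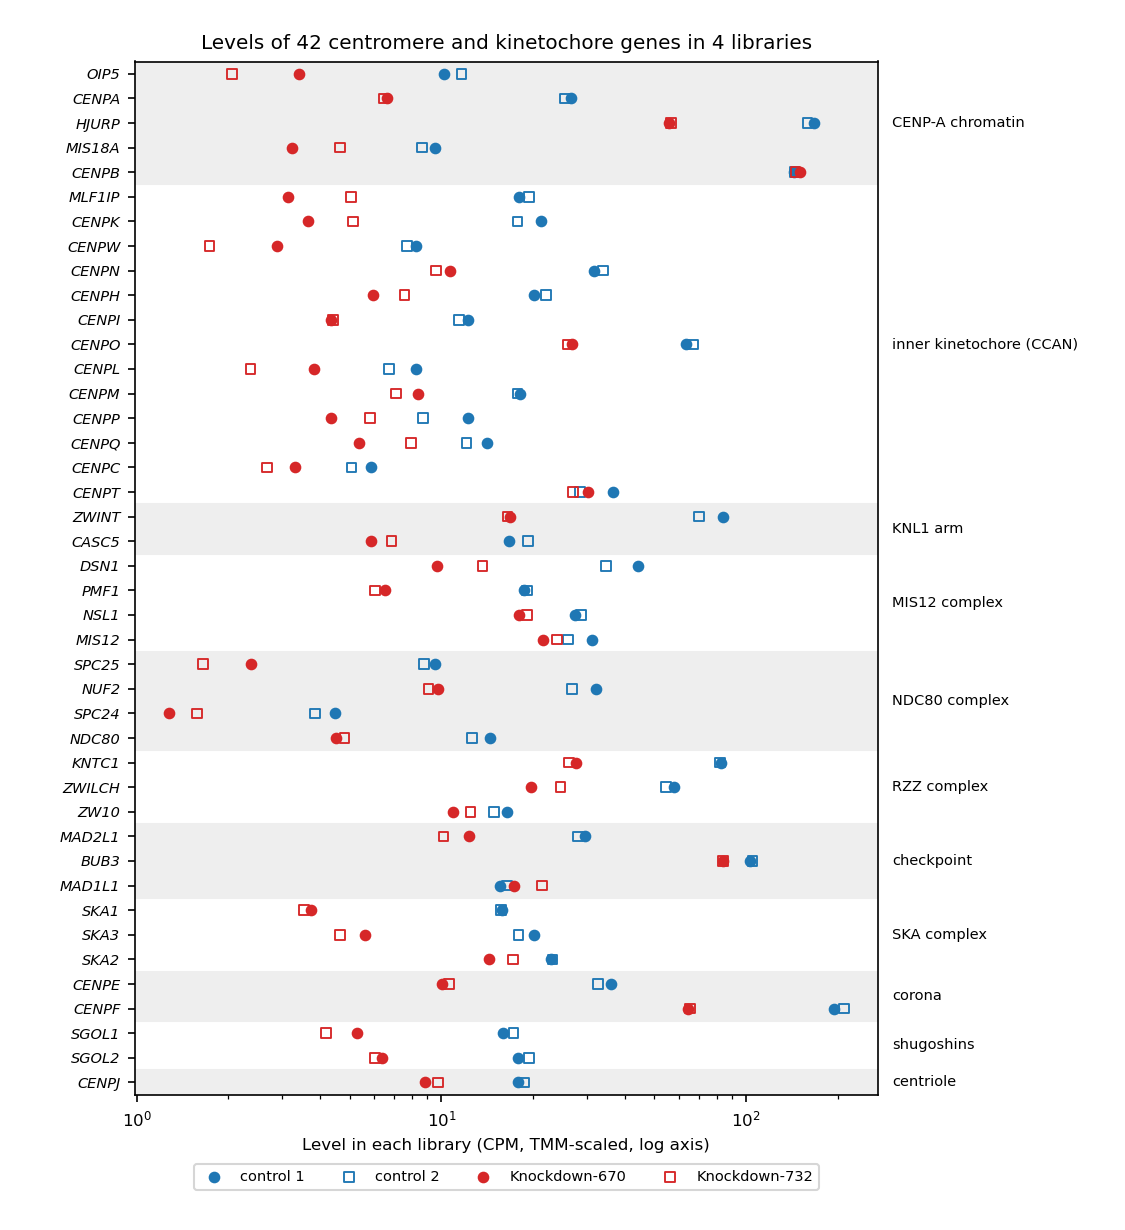
Level of each of the 42 genes (rows, grouped by complex) in each library, in CPM on a log axis; blue marks are controls and red marks knockdown libraries, circles for control 1 and Knockdown-670 and open squares for control 2 and Knockdown-732. Red lies left of blue in 39 rows; the marks overlap in CENPT, and lie at or right of blue in CENPB and MAD1L1.

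All 10 genes of the outer KMN network fell. CASC5, the older symbol of KNL1, is the scaffold on which BUB checkpoint proteins assemble; it went from 16.6 and 19.3 to 5.86 and 6.86 CPM (log2 -1.49, SE 0.16). ZWINT binds KNL1 and links it to the RZZ complex. It was at 84.1 and 70.1 CPM in the controls and at 16.8 and 16.5 CPM in the knockdown, 77.1 ± 9.89 against 16.6 ± 0.244 CPM (SD, n = 2 each), or -2.21 on the log2 scale (SE 0.11, edgeR adjusted p = 1.46e-11). The controls differed between themselves more than the knockdown libraries did, and both lay more than 4-fold above them.

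The NDC80 complex, the main microtubule-binding rod, fell as a whole, with log2 fold changes from -2.18 to -1.53. With the GC and length correction they ran from -1.73 for SPC25 to -1.15 for NDC80. SPC25 was at 9.51 and 8.77 CPM in the controls and 2.38 and 1.66 CPM in the knockdown (log2 -2.18, SE 0.24, edgeR adjusted p = 5.41e-07). NUF2 went from 32.2 and 26.8 to 9.77 and 9.06 CPM (log2 -1.65, SE 0.14) and NDC80 from 14.4 and 12.6 to 4.50 and 4.81 CPM (log2 -1.53, SE 0.18). SPC24 had the fewest counts of the 42 genes, with 58 and 51 for control siRNA and 15 and 20 for the knockdown, and its log2 fold change of -1.54 had an SE of 0.30. Per kilobase of annotated exon, the controls held 14.6 CPM of NUF2, 6.75 of SPC25, 6.22 of NDC80 and 1.80 of SPC24, and the knockdown 4.65, 1.49, 2.14 and 0.616. NUF2 thus led and SPC24 came last in each group.

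In the MIS12 complex, which joins the inner kinetochore to NDC80 and KNL1, the 4 subunits fell to unequal extents. DSN1 was at 44.1 and 34.6 CPM in the controls and at 9.68 and 13.6 CPM in the knockdown (log2 -1.75, SE 0.16), and PMF1 at 18.6 and 19.1 against 6.54 and 6.07 CPM (log2 -1.58, SE 0.15). NSL1 went from 27.4 and 28.6 to 17.9 and 19.1 CPM (log2 -0.60, SE 0.12, edgeR adjusted p = 0.000505). MIS12 itself was at 31.2 and 26.1 CPM in the controls and 21.6 and 23.9 CPM in the knockdown, or -0.33 on the log2 scale (SE 0.12, edgeR adjusted p = 0.0365). That call was lost without control 1, without Knockdown-670, in DESeq2 and with the GC and length correction, where MIS12 stood at -0.04 and NSL1, also lost, at -0.16. Per kilobase of exon, DSN1 and PMF1 were above MIS12 and NSL1 in the controls, at 15.7 and 15.8 against 10.2 and 8.17 CPM, and below them in the knockdown, at 4.65 and 5.28 against 8.08 and 5.39 CPM. PMF1 shares 587 exon bases with the read-through gene PMF1-BGLAP, which stood at 9.51 and 9.60 CPM in the controls and 2.55 and 3.07 CPM in the knockdown.

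The RZZ complex of KNTC1 (ROD), ZWILCH and ZW10 brings MAD1 and the motor dynein to unattached kinetochores. KNTC1 fell from 82.6 and 81.9 to 27.6 and 26.2 CPM (log2 -1.61, SE 0.09, edgeR adjusted p = 5.87e-11) and ZWILCH from 57.8 and 54.6 to 19.7 and 24.6 CPM (log2 -1.34, SE 0.11). ZW10, which also serves in membrane traffic between the endoplasmic reticulum and the Golgi, was at 16.4 and 14.9 CPM in the controls and 10.9 and 12.4 CPM in the knockdown (log2 -0.42, SE 0.14, edgeR adjusted p = 0.0249). Its groups did not overlap, but the call was lost without control 1, without Knockdown-670, in DESeq2 and with the GC and length correction.

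The 3 checkpoint genes gave 3 different values. MAD2L1 encodes MAD2, the part of the mitotic checkpoint complex that captures CDC20, and fell from 29.6 and 28.1 to 12.3 and 10.2 CPM (log2 -1.36, SE 0.14, edgeR adjusted p = 1.85e-07). BUB3, which carries BUB1 and BUBR1 to KNL1, was at 103 and 105 CPM in the controls and at 84.2 and 84.1 CPM in the knockdown. This was a small fall, with the libraries of each group close together (log2 -0.30, SE 0.07, edgeR adjusted p = 0.00229). MAD1L1, the kinetochore receptor that converts MAD2, was at 15.6 and 16.4 CPM in the controls and at 17.2 and 21.4 CPM in the knockdown. On the log2 scale it differed by 0.27 (SE 0.14, edgeR adjusted p = 0.122); it passed as a rise of 0.41 without Knockdown-670 and stood at -0.01 with the GC and length correction.

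SKA1, SKA2 and SKA3 form the complex that helps NDC80 follow shrinking microtubule ends. SKA1 was at 15.8 and 15.7 CPM in the controls and at 3.74 and 3.55 CPM in the knockdown (log2 -2.11, SE 0.17, edgeR adjusted p = 1.69e-08). The libraries of each group were almost equal. SKA3 went from 20.2 and 17.9 to 5.60 and 4.65 CPM (log2 -1.89, SE 0.16). SKA2 fell less, from 22.8 and 23.1 to 14.3 and 17.2 CPM (log2 -0.54, SE 0.13, edgeR adjusted p = 0.00252), and its call was lost with the GC and length correction, at -0.13. Per kilobase of exon the 3 stood at 5.34, 7.68 and 6.53 CPM (SKA1, SKA2, SKA3) in the controls and at 1.23, 5.25 and 1.76 CPM in the knockdown.

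The fibrous corona holds CENPE, a kinesin that carries chromosomes to the spindle equator, and CENPF, a large coiled-coil protein. CENPE fell from 36.1 and 32.7 to 10.0 and 10.6 CPM (log2 -1.74, SE 0.13, edgeR adjusted p = 4.36e-09). CENPF was at 194 and 209 CPM in the controls and at 64.2 and 65.3 CPM in the knockdown (log2 -1.64, SE 0.07). The shugoshins, which protect centromeric cohesin until anaphase, fell together: SGOL1 (SGO1) from 15.9 and 17.2 to 5.27 and 4.18 CPM (log2 -1.81, SE 0.17) and SGOL2 (SGO2) from 17.8 and 19.4 to 6.37 and 6.07 CPM (log2 -1.58, SE 0.15). CENPJ carries a centromere-family symbol but encodes CPAP, a protein of centriole assembly. It was at 17.8 and 18.7 CPM in the controls and 8.83 and 9.77 CPM in the knockdown, or -0.97 on the log2 scale (SE 0.14, edgeR adjusted p = 2.29e-05).

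**Figure D4:**
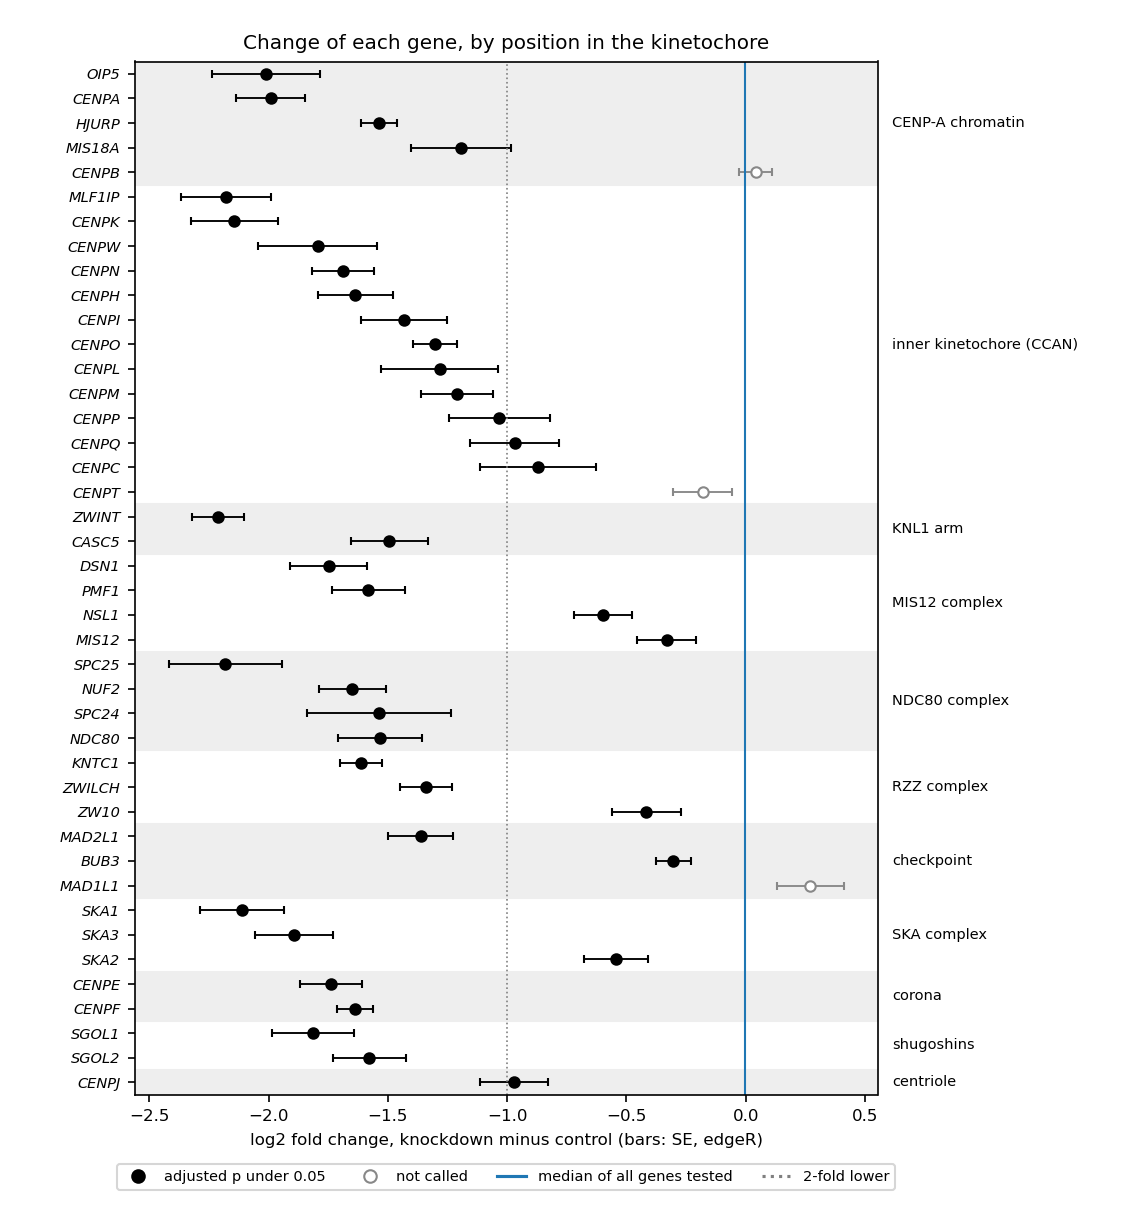
log2 fold change, knockdown minus control, of each of the 42 genes (rows, grouped by complex), with bars for the SE of edgeR's fit; filled points passed an adjusted p of 0.05, open points did not, the blue line is the median of all genes tested and the dotted line a 2-fold fall. The NDC80 subunits, the corona genes and the shugoshins all lie below -1.5 in this fit. The CENP-A chromatin, inner kinetochore, MIS12, RZZ, checkpoint and SKA groups each hold a gene above -0.61.

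By complex, the median log2 fold change was -1.54 for the 5 genes of CENP-A chromatin, -1.30 for the 13 of the inner kinetochore, -1.59 for NDC80, -1.09 for MIS12, -1.85 for the pair of KNL1 and ZWINT, -1.34 for RZZ and -1.89 for SKA. It was -0.30 for the 3 checkpoint genes, of which 2 fell, -1.69 for the corona and -1.70 for the shugoshins. The value for the checkpoint covers only MAD1L1, MAD2L1 and BUB3. BUB1, BUB1B and TTK of the same checkpoint are in another list below and fell by 1.37, 1.82 and 1.79 on the log2 scale. Differences between complexes were not tested. In the reported fit no gene of the 42 lay between -0.87 (CENPC) and -0.60 (NSL1). The 8 genes above that gap were NSL1, SKA2, ZW10, MIS12, BUB3, CENPT, CENPB and MAD1L1, spread over CENP-A chromatin, the inner kinetochore, the MIS12, RZZ and SKA complexes and the checkpoint. The gap was picked from these values and did not hold in other fits. With the GC and length correction CENPC stood at -0.69 and CENPQ at -0.34. With a library left out, CENPC reached -0.73 and SKA2 -0.70.

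For Knockdown-670 the median log2 ratio to the control mean was -1.54, and for Knockdown-732 it was -1.50. Of the 42 genes, 21 were higher in Knockdown-732 and 21 lower, and the ratio of Knockdown-732 to Knockdown-670 had a median of 1.007 and ran from 0.600 for CENPW to 1.60 for MLF1IP. Between the controls the ratio of control 2 to control 1 ran from 0.712 for CENPP to 1.16 for CASC5, with a median of 0.951. In 5 genes the exact 95% interval of the knockdown ratio, which covers counting error only, excluded 1. These were MLF1IP, CENPQ (1.49), DSN1 (1.41), ZWILCH (1.25) and MAD1L1 (1.24), all higher in Knockdown-732. This compares 2 libraries and not 2 conditions. The share of all genes whose interval excluded 1 was not computed. Over all genes the knockdown libraries differed by more than counting noise (chi-square per gene 3.42), so these 5 need not stand out.

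**Figure D5:**
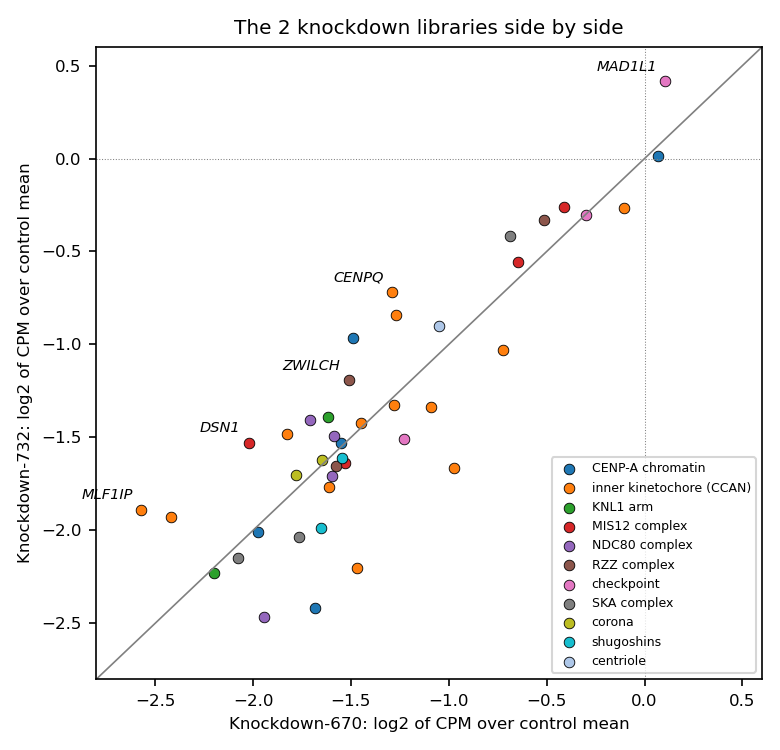
log2 of the CPM in Knockdown-732 over the control mean (vertical axis) against the same for Knockdown-670 (horizontal axis), 1 point per gene, coloured by complex; the line marks equal values. Points follow the line from -2.57 to 0.42, and the 5 named genes are those whose ratio between the libraries had an interval, for counting error only, that excluded 1.

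The further lists were chosen by textbook role, but with earlier results of these data known. Other genes of the same machinery gave 24 fallen and 0 risen of 30, with a median log2 fold change of -0.85. PLK1, a kinase that acts at kinetochores, fell by 1.38 on the log2 scale, BUB1B, which encodes the checkpoint kinase-like protein BUBR1, by 1.82 and KIF2C, a microtubule-depolymerising kinesin, by 1.48. Of 18 genes for the anaphase-promoting complex and its partners, the target of the checkpoint, 9 fell and 0 rose, with a median of -0.28; 1, the activator FZR1 (log2 0.22), was higher at an unadjusted p under 0.05 in edgeR, and 0 were called higher by DESeq2 or limma-voom. The ubiquitin-conjugating enzyme UBE2C fell by 1.26, the activator CDC20 by 0.93 and the core subunit CDC27 by 0.44. With the GC and length correction 5 of the 18 fell. The share of all genes that fell was 22.8% in the reported fit and 22.7% with that correction.

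Condensin and cohesin genes fell in 19 of 20 cases (median -0.83) and replication licensing genes in 17 of 17 (median -1.22), with 0 risen in either, by edgeR, DESeq2 or limma-voom or at an unadjusted p under 0.05 in edgeR. SMC4, a condensin ATPase, fell by 1.47, NCAPG2 by 1.54 and NCAPG by 2.06 on the log2 scale. The helicase subunits MCM4, MCM7 and MCM6 had log2 fold changes of -1.46, -1.225 and -1.35, and all 3 fell. These lists share the 4 libraries with the 42 genes, and differences in median between lists were not tested.

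Transcript GC content is a measured difference between these genes and the rest: its median was 41.6% over the 42 and 48.9% over the tested genes with a GENCODE match. Corrected for GC content and length, 36 of the 42 fell, while of the 14663 genes with a GC value that entered this fit 22.7% fell and 23.1% rose, and the median of the 42 was -1.295. DESeq2 called 36 of the 42 lower, with 16.0% lower over all genes tested.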

How the data were processed

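The authors deposited raw counts for 4 A549 libraries in a single table, as whole numbers by gene symbol. Per the labels' protocols, RNA was extracted with Trizol and the sequencer was an Ion Proton. GRCh37 is the build in the submitters' processing notes. For the aligner, counting program, annotation and strand setting, the setting used was not given in the sources used here. The members and lists were chosen with earlier results of these data known. Groups followed the sample titles. Libraries of a group differed by more than counting noise (chi-square per gene 3.72 for the pair of controls, 3.42 for the pair of knockdown libraries), so each was kept as its own sample.

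Counts were tested with edgeR 4.0.16 under R 4.3.3 (low counts removed by filterByExpr, TMM scaling, robust quasi-likelihood fit, Benjamini-Hochberg adjustment over 16120 genes, threshold 0.05); the coefficient of biological variation was 6.64%. CPM are TMM-scaled, and SE is the log2 fold change over the root of F. All 42 members were named; of other lists, the interferon list's first 3 genes and, elsewhere, the 3 called genes of smallest p. Marker genes printed for the check of cell type, genes overlapping a member, and FZR1, BUB1 and TTK were named after their values were seen. Lengths and GC content came from GENCODE v29 and promoters from RefSeq, both on GRCh38 and joined by symbol. The fit was tested on simulated counts. Alternatives were other scalings and filters, each library left out, DESeq2 1.42.0, limma-voom (limma 3.58.1), glmTreat and, chosen after seeing the data, a GC and length correction (mgcv 1.9.3).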

Additional observations from a re-analysis of the deposited data

How the results depend on the processing

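Over 11 alternatives 33 of the 42 genes kept their direction and their side of the threshold; the exceptions were CENPB, CENPC, CENPQ, CENPT, MIS12, NSL1, ZW10, MAD1L1 and SKA2. With library size only, the members' median log2 fold change was -1.598 and CENPB stood at -0.021. With the correction for GC content and length, chosen after seeing the data, the median was -1.295, CENPB stood at -0.28, CENPK at -1.48 and MAD1L1 at -0.011, and 5 genes of the anaphase-promoting complex list fell in place of 9. Without 1 library at a time the median ran from -1.546 to -1.475, the members called higher from 0 to 1 (MAD1L1, without Knockdown-670), the members called lower from 37 to 40 and CENPT from -0.36 to 0.005. With a filter of at least 5 CPM in at least 2 libraries 1 gene of the anaphase-promoting complex list rose, and SPC24 was not tested. The share of the 35 member promoters with an E2F-type motif was 11.4% within 100 bases before to 50 after the start, against 3.41% of all promoters and 5.19% of tested genes. Which gene was lowest differed between fits: ZWINT in the reported one, MLF1IP with limma-voom, without control 1 and without Knockdown-732, and SPC25 without Knockdown-670. Over all genes, the split was 3243 higher and 4265 lower with library size only. Except where a value of the report bears on it, the cause of these differences was not tested. No paired analysis was possible because the knockdown libraries carry no replicate number shared with the controls. Depth limits SPC24, the gene with the fewest counts, most.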
